A study of Sus scrofa with 6 samples.

Results

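The genes described here mark T, B and NK lymphocytes. They were chosen by name, from 9 symbols of widely used lymphocyte markers, and 6 of them (CD3D, CD4, CD8A, CD79B, MS4A1 and NKG7) were matched by gene identifier to the table of 14579 mRNAs. The other 3, CD3E, CD79A and GZMB, had no identifier in this table and were not analysed here. Lung tissue was sampled from 6 female hybrid piglets with a Tibetan sire and a Meishan dam. The fetal group (Fetal1, Fetal2 and Fetal3) was taken on the last day before birth and the neonatal group (Neonatal1, Neonatal2 and Neonatal3) 2 days after birth, with 1 piglet from each of 6 sows. The samples were whole tissue, and no step that separates cell types is described, so age, air breathing and any change in cell composition cannot be told apart between the groups.

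Lymphocytes arise from precursors in the bone marrow and thymus and reach the lung through the blood. T cells recognise antigen through a receptor that signals through the CD3 chains, with CD4 or CD8 as a co-receptor. B cells use a membrane immunoglobulin that signals through CD79A and CD79B, and NK cells kill without an antigen receptor by releasing the contents of cytotoxic granules. In newborn mammals the adaptive immune system is still little exposed to antigen, and piglets take up maternal antibodies from colostrum because the porcine placenta passes almost none.

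Expression was measured as FPKM (fragments scaled to the length of the transcript and the mapped reads of the library), a level per length that can be compared between genes. The tables held no read counts, so the depth behind each value is unknown here and the spread between the 3 piglets of a group was the error used. Differences between the groups are neonatal minus fetal in log2(FPKM + 1), so that the change of low genes is understated, and were tested in limma with Benjamini-Hochberg adjustment over all 14579 mRNAs. The threshold was an adjusted p of at most 0.05. The median difference of all mRNAs was 0.13 on this scale, and it was -0.0090 after median-of-ratios scaling of the samples. The tissue label was borne out by SFTPC, the surfactant protein of alveolar type II cells, with a mean FPKM of 3508 ± 369 before and 6373 ± 2291 after birth (SD, n = 3 each). The libraries differed in the share of lncRNAs listed at 0, which was between 27.2% and 31.3% in Fetal3, Neonatal2 and Neonatal3 and between 9.29% and 13.2% in Fetal1, Fetal2 and Neonatal1. The lymphocyte genes are therefore also given within these sets of 3 samples. A fit that adds this split as a covariate is called the fit with the library term.

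CD79B and MS4A1, the B cell genes among the 6, were the only ones whose fetal and neonatal values did not overlap, and both were lower after birth. Of 14 other B cell genes, 9 had a higher and 5 a lower neonatal mean (8 and 6 after median-of-ratios scaling), and the 4 of them without overlap were all higher. Over all mRNAs, 8729 of 14579 had a higher neonatal mean. The 4 genes are 28.6% of the list, against 30.5% of all mRNAs without overlap, 20.9% with the neonatal group higher. A gene had to exceed 0.5 FPKM in at least 1 sample to be in the table. Of the 14, 2 did so in the neonatal group only and 2 in the fetal group only. The directions of such genes are no support for a rise or a fall. CD79B encodes the immunoglobulin-associated beta chain through which the B cell receptor signals. Fetal1, Fetal2 and Fetal3 had 1.80, 1.88 and 2.11 FPKM, whereas Neonatal1, Neonatal2 and Neonatal3 had 0.184, 1.19 and 1.15 FPKM. Every fetal sample stood above every neonatal sample, and Neonatal1 was the lowest. The means were 1.93 ± 0.162 and 0.841 ± 0.569 FPKM (SD, n = 3 each). The difference was -0.72 in log2(FPKM + 1) (standard error 0.28, 95% interval -1.38 to -0.07), and with an adjusted p of 0.171 in limma it did not pass the threshold. Without Neonatal1 the difference was -0.43 (adjusted p = 0.203). Among Fetal1, Fetal2 and Neonatal1 it was -1.26, and among Fetal3, Neonatal2 and Neonatal3 it was -0.52.

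MS4A1 encodes CD20, a surface protein of mature B cells. Its FPKM, given here and for the other genes in the order of the sample numbers, was 0.429, 0.860 and 0.386 before birth and 0.0740, 0 and 0.0442 after birth. The fetal samples were all higher, but every value was below 1 FPKM, and the 0 of Neonatal2 can be a failed estimate. The difference was -0.57 on the log2(FPKM + 1) scale (standard error 0.21, 95% interval -1.07 to -0.07; adjusted p = 0.159). It was -0.60 among Fetal1, Fetal2 and Neonatal1 and -0.44 among Fetal3, Neonatal2 and Neonatal3. The authors kept mRNAs above 0.5 FPKM in at least 1 sample, and MS4A1 met this limit through Fetal2 alone, so a gene at its neonatal level in all samples would not have been in the table. In the RefSeq annotation of Sscrofa11.1, MS4A1 overlaps its neighbour MS4A4A, another member of the MS4A family, and reads near their shared stretch may be assigned to either gene.

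The T cell genes showed no common direction. CD3D encodes the delta chain of the CD3 complex, and in the same annotation it lies between CD3E and CD3G. Its FPKM was 1.49, 1.76 and 0.682 before birth and 0.680, 1.19 and 4.47 after birth. Neonatal3 was the highest of all samples and Neonatal1 the lowest, so that the neonatal range enclosed the fetal one. The difference was 0.27 (standard error 0.45, 95% interval -0.78 to 1.31; adjusted p = 0.749), and without Neonatal3 it turned to -0.24. The sets of samples also gave opposite signs, with -0.64 among Fetal1, Fetal2 and Neonatal1 and 1.04 among Fetal3, Neonatal2 and Neonatal3.

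CD4, the co-receptor of helper T cells, had FPKM of 0.0549, 0.229 and 1.01 before birth and of 0.839, 0.541 and 2.03 after birth. The groups overlapped because Fetal3 stood above Neonatal1 and Neonatal2. The difference was 0.57 (standard error 0.35, 95% interval -0.24 to 1.39; adjusted p = 0.355), and it was 0.69 and 0.11 within the sets without and with Fetal3. CD8A, the alpha chain of the co-receptor of cytotoxic T cells, which some NK cells also carry, had FPKM of 0.765, 0.408 and 0.0149 before birth and of 0.154, 0.173 and 0.809 after birth. The highest and the lowest values of the fetal group spanned nearly the whole neonatal range. The difference of CD8A was -0.01 (standard error 0.30, 95% interval -0.71 to 0.68; adjusted p = 0.980). Leaving out single samples moved it between -0.23 and 0.17, so no direction can be given for it.

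NKG7, which encodes a membrane protein of the cytotoxic granules of NK and T cells, was the most abundant of the 6 genes in every sample. Its FPKM was 3.07, 3.27 and 5.44 before birth and 5.09, 6.38 and 9.04 after birth. The groups overlapped only in that Fetal3 stood above Neonatal1. The means were 3.92 ± 1.31 and 6.83 ± 2.02 FPKM (SD, n = 3 each), with a difference of 0.67 (standard error 0.27, 95% interval 0.04 to 1.31; adjusted p = 0.187). Among Fetal1, Fetal2 and Neonatal1 the difference was 0.55 and among Fetal3, Neonatal2 and Neonatal3 it was 0.42, and in both sets each neonatal value was above each fetal value.

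**Figure D1:**
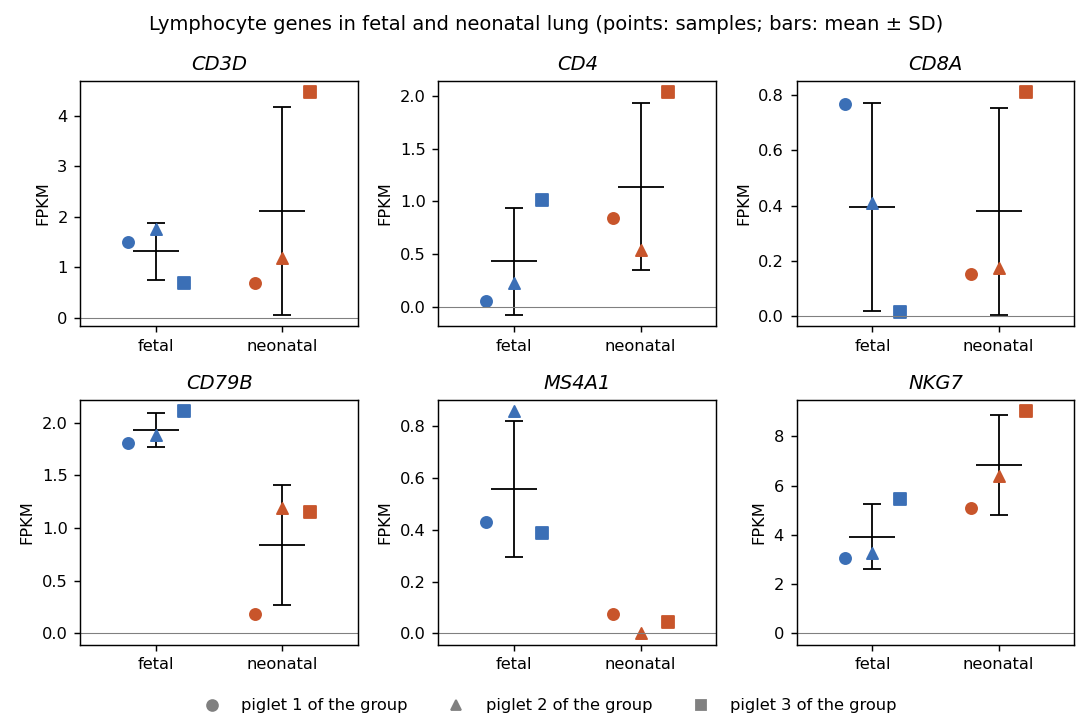
FPKM of the 6 lymphocyte genes in each sample (vertical axes, linear and different for each gene), with the fetal group in blue, the neonatal group in orange and a marker shape for each piglet of a group; black bars are means ± SD (n = 3), left out for MS4A1 in the neonatal group, where 1 sample is listed at 0. CD79B and MS4A1 are lower in all neonatal samples than in all fetal samples, and the groups of the other genes overlap, with Neonatal3 the highest sample of CD3D, CD4, CD8A and NKG7.

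None of the 6 genes was past the threshold in limma (0 of 6), where 6.87% of all mRNAs were, 5.41% with a higher and 1.45% with a lower neonatal level. For 3 of the 6 the unadjusted p was under 0.05 (CD79B, MS4A1 and NKG7), as for 24.2% of all mRNAs. MS4A1 is in this count and the next although it met the limit of 0.5 FPKM through the fetal group alone, so it is no support for either. Groups that did not overlap were found for 2 of the 6, both lower after birth, where 30.5% of all mRNAs did not overlap, 20.9% with the neonatal group higher and 9.64% with it lower. The median difference of the 6 genes was 0.13, as over all mRNAs, and ranged from -0.72 for CD79B to 0.67 for NKG7. The 95% intervals of CD3D and CD4 reached from differences below 0 up to 1.31 and 1.39, so that these data leave the direction of the T cell genes undetermined. In whole tissue, fewer cells of a type and less RNA per cell cannot be told apart.

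**Figure D2:**
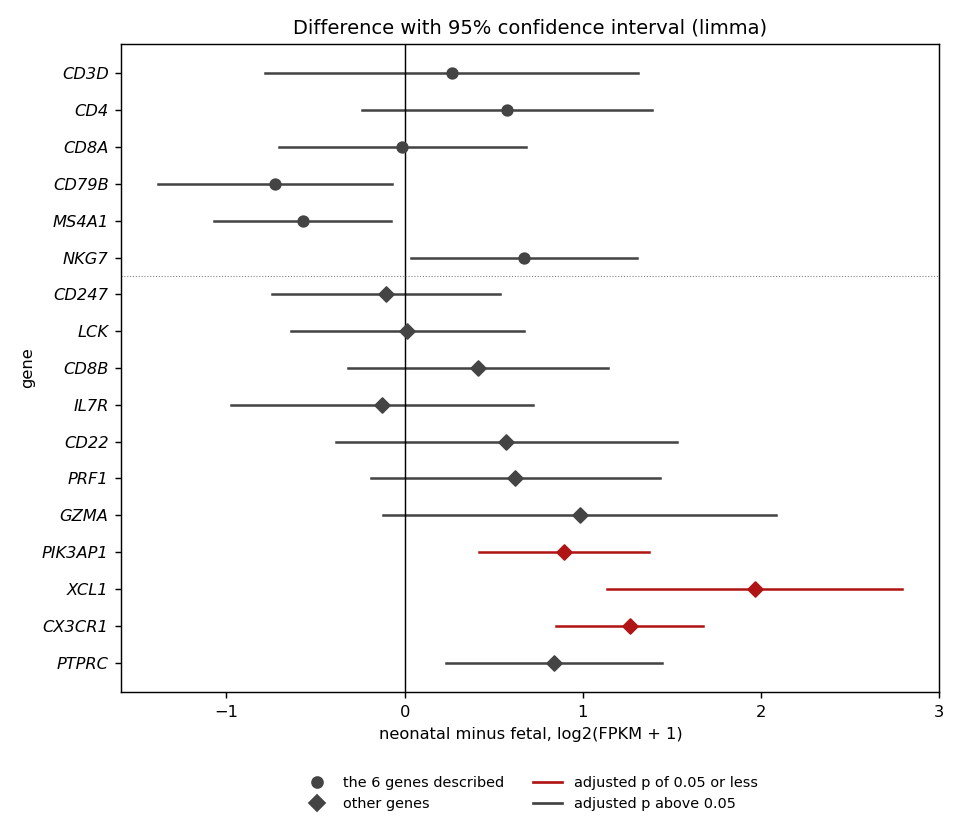
Difference between the groups (neonatal minus fetal, log2(FPKM + 1), horizontal axis) of the 6 lymphocyte genes (circles, above the dotted line) and of other lymphocyte genes and PTPRC (diamonds), with 95% confidence intervals from limma; red marks genes past the threshold. The intervals of CD3D, CD4 and CD8A hold 0, those of CD79B and MS4A1 lie below it and that of NKG7 above it, and no circle is red.

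Apart from NKG7, the 6 genes were below the median mRNA of every sample. NKG7 exceeded between 35.1% and 61.0% of the mRNAs of a sample, CD3D between 12.1% and 41.9%, CD79B between 5.38% and 29.4%, CD4 at most 25.2% and CD8A between 5.14% and 13.9%. In the fetal group the order of mean FPKM was NKG7, CD79B, CD3D, MS4A1, CD4 and CD8A. NKG7 was separated from CD79B in all fetal samples, and CD79B from CD3D by a small margin (lowest CD79B value 1.80, highest CD3D value 1.76 FPKM), but the ranges of CD3D and MS4A1, of MS4A1 and CD4 and of CD4 and CD8A overlapped. In the neonatal group the order was NKG7, CD3D, CD4, CD79B, CD8A and MS4A1. Here NKG7 was separated from CD3D and CD8A from MS4A1, and all neighbours between CD3D and CD8A overlapped. CD79B thus moved from the second to the fourth place, and MS4A1 from the fourth to the last. MS4A1 met the limit of 0.5 FPKM through Fetal2 alone, so its move is no support for a fall.

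PTPRC encodes CD45, a phosphatase on the surface of all leukocytes. Its FPKM was 8.93, 6.37 and 6.77 before birth and 9.56, 15.5 and 17.7 after birth, without overlap. The difference was 0.84 (standard error 0.26; adjusted p = 0.102), and without Neonatal1 it was 1.08 and past the threshold (adjusted p = 0.0441). Each lymphocyte gene was therefore also set against PTPRC in the same sample, a ratio that does not depend on how samples are scaled. This ratio was chosen after the values had been seen and is given without a test. Per 100 FPKM of PTPRC, CD79B stood at 20.2, 29.5 and 31.2 before birth and at 1.92, 7.70 and 6.47 after birth. MS4A1 stood at 4.80, 13.5 and 5.70 before birth and at 0.774, 0 and 0.249 after birth. Since PTPRC was itself higher in every neonatal sample, these ratios could only be without overlap, and they give the sizes alone. NKG7 had 55.3 ± 23.3 and 48.5 ± 6.35 FPKM per 100 FPKM of PTPRC (SD, n = 3 each), so that its higher neonatal FPKM was not seen on this scale. The ratios were 18.2 ± 8.88 and 13.3 ± 10.3 for CD3D, 6.37 ± 7.53 and 7.91 ± 4.05 for CD4, and 5.06 ± 4.33 and 2.43 ± 1.86 for CD8A, with overlap for each of these genes.

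**Figure D3:**
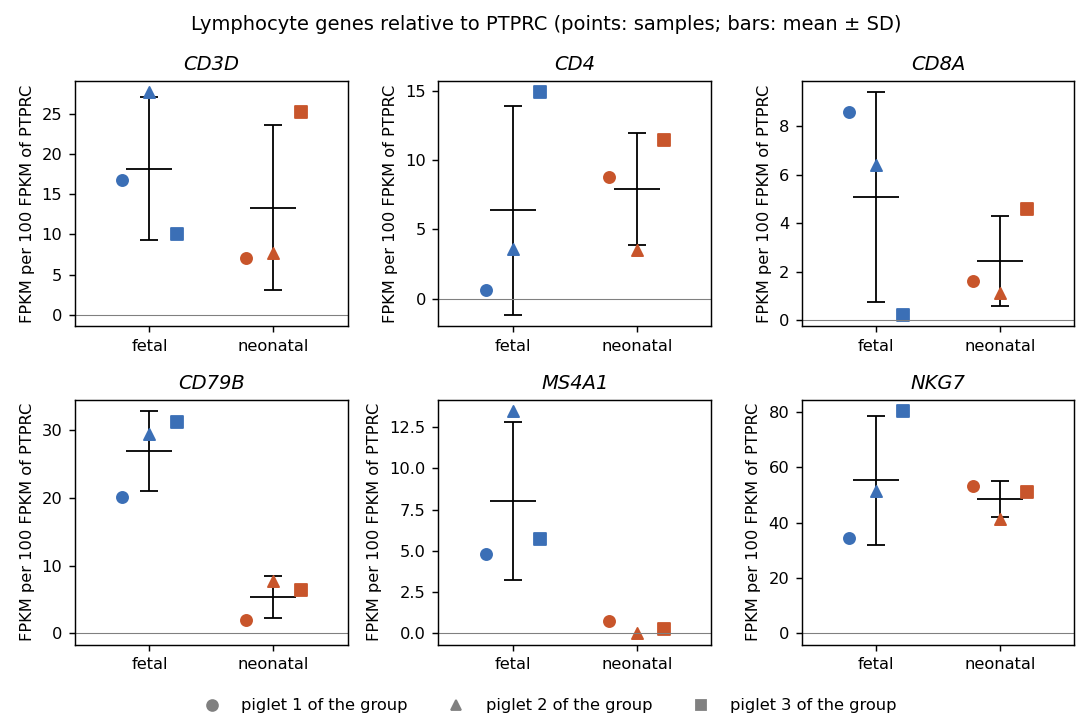
FPKM of each lymphocyte gene per 100 FPKM of PTPRC in the same sample (vertical axes, linear and different for each gene), with groups, marker shapes and bars of mean ± SD (n = 3) as for the plot of FPKM by sample and no bar for MS4A1 in the neonatal group. The ratios of CD79B and MS4A1 are lower in all neonatal samples, and those of CD3D, CD4, CD8A and NKG7 overlap between the groups.

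Other genes of the same cells were taken from lists of 122 genes in all, of which 62 were matched by symbol. Of these, 4 were past the threshold, 3 higher and 1 lower in the neonatal group, which is 6.45% against 6.87% of all mRNAs, and the 3 include XCL1, whose fetal values are all 0. The groups did not overlap for 13 of the 62 genes, or 21.0%, against 30.5% of all mRNAs. In place of 4 calls there were 1 without Fetal1 or without Fetal3, 0 without Fetal2, 5 without Neonatal1, 2 without Neonatal2 and 3 without Neonatal3. The calls over all mRNAs, 1001 with all samples, fell to 304, 196 and 397 without Fetal1, Fetal2 or Fetal3. They were 944, 255 and 308 without Neonatal1, Neonatal2 or Neonatal3. In 23 of the 62 the mean over all samples was below 1 FPKM, and 6 of the 62 exceeded 0.5 FPKM in the fetal group only and 8 in the neonatal group only.

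For the T cell receptor complex and its signaling, 14 of 26 listed genes were measured and none passed the threshold in limma (0 of 14, with an unadjusted p under 0.05 for 2). The median difference was 0.00056, with 7 genes higher and 7 lower, and after median-of-ratios scaling 5 were higher and 9 lower. LCK, the kinase that starts signaling from the T cell receptor, had 1.73 ± 0.682 and 1.76 ± 0.707 FPKM (SD, n = 3 each; adjusted p = 0.977). CD247, the zeta chain of the same receptor and also of NK cell receptors, stood far above CD3D at 27.5 ± 5.79 and 25.9 ± 7.48 FPKM (SD, n = 3 each; adjusted p = 0.845). The levels of LCK and CD247 differed less between the groups than between piglets. Which cells gave the CD247 level was not tested. CD8B, the partner of CD8A, was listed at 0 in Fetal1 and Neonatal2 and reached 1.18 FPKM in Neonatal3, the sample with the highest CD8A. PRKCQ, a protein kinase C that acts downstream of the T cell receptor, had the largest difference of the list, 0.94 (adjusted p = 0.0516).

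For T cell identity, subsets and homing, 18 of 32 genes were measured, with a median difference of 0.0026, which was -0.08 after median-of-ratios scaling. IL7R, the receptor for the survival cytokine IL-7, had 1.30 ± 0.253 and 1.30 ± 1.25 FPKM (SD, n = 3 each; adjusted p = 0.855), with the neonatal values on both sides of the fetal ones.

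For the B cell receptor, B cell identity and plasma cells, 14 of 32 genes were measured. Their median difference was 0.48, above that of all mRNAs, whereas the values of CD79B and MS4A1 were lower in the neonatal group. CD22, an inhibitory receptor of B cells, had 1.66 ± 1.11 and 2.81 ± 1.32 FPKM (SD, n = 3 each; adjusted p = 0.432). PIK3AP1, an adaptor that links the B cell receptor to PI3K and is also expressed in myeloid cells, was past the threshold. It rose from 2.25 ± 0.277 to 5.08 ± 1.05 FPKM (SD, n = 3 each; difference 0.90, adjusted p = 0.0447). This call was lost after median-of-ratios scaling (adjusted p = 0.0545), with the library term (adjusted p = 0.0877) and with any of the 6 samples left out, where the adjusted p lay between 0.0544, without Neonatal1, and 0.162, without Fetal2.

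Of 32 listed NK and cytotoxic genes 16 were measured, and all 16 had a higher mean in the neonatal group, also after median-of-ratios and quantile scaling, with a median difference of 0.43. Over all mRNAs, 8729 of 14579 had a higher neonatal mean before such scaling. Of the 16, 3 exceeded 0.5 FPKM in the neonatal group only, XCL1 and GZMA among them, so these 3 are no support for that direction. The summed level of the 16 genes was between 76.0 and 110.7 FPKM in the fetal and between 152.9 and 383.6 FPKM in the neonatal samples. The sum over all mRNAs was also higher in every neonatal sample, with at most 471220 FPKM before and at least 491548 FPKM after birth. Most of the sum of the 16 came from TYROBP, an adaptor of NK and myeloid receptors, at 70.8 ± 17.3 and 232.7 ± 96.3 FPKM (SD, n = 3 each; adjusted p = 0.0506). The threshold was passed by 2 of the 16, or 12.5%, against 6.87% of all mRNAs, and 1 of the 2, XCL1, was in the table through the neonatal group alone. CX3CR1, the fractalkine receptor of NK cells, cytotoxic T cells and monocytes, rose from 1.12 ± 0.0689 to 4.09 ± 0.186 FPKM (SD, n = 3 each; difference 1.26, adjusted p = 0.00950). Without Fetal2 its adjusted p was 0.0554. XCL1, a chemokine that NK and CD8 T cells secrete, was listed at 0 in all fetal samples and had 2.28, 1.65 and 5.85 FPKM after birth (adjusted p = 0.0219). The adjusted p of XCL1 was 0.0846, 0.105 and 0.0783 without Fetal1, Fetal2 or Fetal3, and 0.0554 with the library term. Since it met the limit of 0.5 FPKM only through the neonatal group, it had to differ. The killing genes themselves were not past the threshold. PRF1, the pore-forming perforin, had 0.475 ± 0.389 and 1.34 ± 0.877 FPKM (SD, n = 3 each; adjusted p = 0.317), with overlap. GZMA, a granzyme, had FPKM of 0.408, 0.153 and 0.248 before birth and of 2.11, 3.42 and 0.138 after birth (adjusted p = 0.249). Neonatal3 was the lowest sample of GZMA, and without it the difference of 0.98 became 1.55 with an adjusted p of 0.0450 in limma. GZMA met the limit of 0.5 FPKM through Neonatal1 and Neonatal2 alone, so this p is no support for a rise.

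Lists of leukocyte genes in general and of other cell types were examined in the same samples. The pan-leukocyte list, which holds lymphocyte genes too, had 12 of 18 genes measured, all with a higher neonatal mean, and a median difference of 1.21. CD48, ITGAL and VAV1, which act in lymphocytes as well as in myeloid cells, were past the threshold (3 of 12, or 25.0%, against 6.87% of all mRNAs), and 8 of 12 did not overlap between the groups, against 30.5% of all mRNAs. The summed level of the list was between 101.2 and 160.7 FPKM in the fetal and between 185.3 and 369.1 FPKM in the neonatal samples. For this and the other lists, the sum over all mRNAs was itself higher in every neonatal sample. The count of calls was 0 without Fetal2, Fetal3, Neonatal2 or Neonatal3, 1 without Fetal1 and 7 without Neonatal1, and it was 0 with the library term. The macrophage and monocyte list had 10 of 16 genes measured, all with a higher neonatal mean (9 after median-of-ratios scaling), a median difference of 1.16 and 1 call, LYZ (10.0%). Of the 10, 1 exceeded 0.5 FPKM in the neonatal group only and is no support for this direction. The summed level of this list was between 310.6 and 731.9 FPKM in the fetal and between 557.8 and 1343 FPKM in the neonatal samples. The neutrophil list had 7 of 12 genes measured, a median of 1.18 and 2 calls (28.6%), S100A8 and LTF, both higher, of which 1 was left without Fetal1, Fetal2, Neonatal1, Neonatal2 or Neonatal3. Its summed level was at most 50.05 FPKM in the fetal and at least 205.0 FPKM in the neonatal samples. Most of this sum came from S100A8, at 33.4 ± 6.68 and 239.5 ± 48.8 FPKM (SD, n = 3 each). ELANE was listed at 0 in all neonatal samples. Smaller lists gave no call, with 4 of 14 dendritic cell genes measured (median 0.19, an unadjusted p under 0.05 for 2), 3 of 8 mast cell and basophil genes (median -0.04, 1) and 7 of 9 lung epithelial genes (median 0.52, or -0.04 after quantile normalization, 2) in limma. The part of these cells in the values of CD4, CX3CR1 and PIK3AP1, which myeloid cells can also express, was not tested.

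Of 23 cytokines and chemokines that keep lymphocytes alive or attract them 7 were measured, of which 4 were higher and 3 lower, and 2 (28.6%) passed the threshold, against 6.87% of all mRNAs. Their median difference, 0.47, is the value of CCL17, which was listed at 0 in all samples but Neonatal3. CCL19, which draws T cells and dendritic cells that carry CCR7, rose from 2.71, 4.29 and 3.77 FPKM to 10.4, 16.4 and 34.2 FPKM (difference 2.07, adjusted p = 0.0261). IL18, which activates NK and T cells, was also past the threshold and higher. With the library term, the adjusted p was 0.0532 for CCL19 and 0.0538 for IL18. Both calls remained when Neonatal1 was left out and were lost when any other sample was, where the adjusted p of CCL19 in limma was between 0.0563 and 0.107. CCL28, a chemokine of mucosal epithelium that attracts lymphocytes, had the lowest difference of the list, with 6.18 ± 3.79 before and 1.82 ± 1.45 FPKM after birth (SD, n = 3 each), and was lower in all neonatal samples without passing the threshold (difference -1.36, adjusted p = 0.142). CCR7, the receptor for CCL19 on T cells, had FPKM of 2.43, 3.05 and 2.72 before birth and of 1.08, 1.72 and 1.62 after birth, lower in all neonatal samples but not past the threshold (difference -0.60, adjusted p = 0.128).

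**Figure D4:**
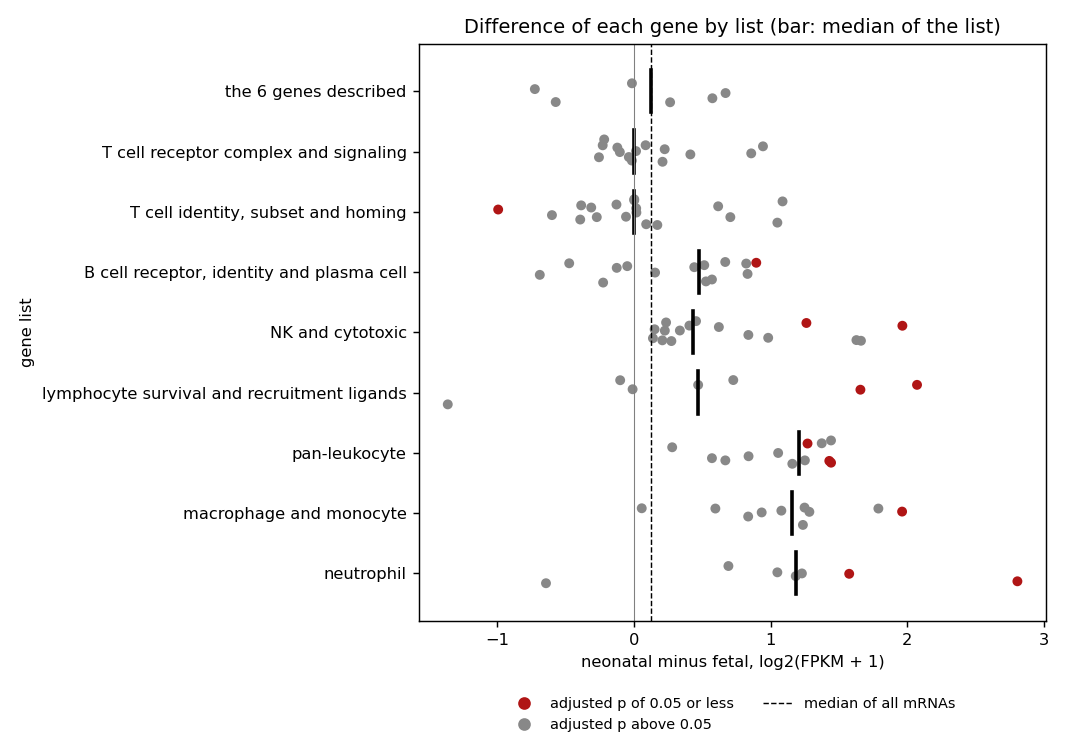
Difference of each measured gene between the groups (neonatal minus fetal, log2(FPKM + 1), horizontal axis) by gene list, with a bar at the median of each list and a dashed line at the median of all mRNAs, 0.13; points are spread vertically for legibility and red marks genes past the threshold in limma. The medians of the T cell lists lie near 0, those of the B cell and NK lists at 0.48 and 0.43, and those of the pan-leukocyte, macrophage and neutrophil lists between 1.16 and 1.21.

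Among 8375 other mRNAs with a symbol and a mean of at least 1 FPKM, the profiles most like that of CD79B over the 6 samples were those of PLCB4, GULP1 and CEP120, with Pearson coefficients of 0.996, 0.996 and 0.992 on log2(FPKM + 1). Like CD79B, they were lowest in Neonatal1: PLCB4 had 0.989 FPKM there, against 2.90, 2.80 and 3.05 FPKM before birth. With 6 samples that share their libraries, 34 mRNAs exceeded a coefficient of 0.95, and these values describe likeness only. CD8A was below 1 FPKM in every sample and was not compared in this way.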

How the data were processed

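RNA of lung tissue from 6 piglets was sequenced by the authors from strand-specific Ribo-Zero libraries. Reads were mapped to Sscrofa10.2 with TopHat 2.1.0, and the authors deposited FPKM from Cufflinks 2.2.1 for mRNAs above 0.5 FPKM in at least 1 sample, and for lncRNAs, of which only the share listed at 0 was used. The 12 value columns were matched to samples by name. Symbols came from a reference table that matched 9478 of 14579 identifiers, and the table of the study named 0 further members.

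Values were analysed as log2(FPKM + 1) without a further filter with a variance trend over all mRNAs in limma 3.58.1, run in R 4.3.3, and checked on simulated data. Python 3.11.15 (numpy 2.4.6, pandas 2.3.3) served for sums, ratios and correlations. The members and lists were chosen with earlier results of these data known. Every gene past the threshold was to be named from a list, up to 6, with lineage genes and up to 3 others. Some genes of the lists are not reported here by name. Of the lineage genes in the rule, CD3G, ZAP70, PAX5, KLRK1 and NCR1 were not matched and not analysed here. Coordinates are not given, since the reference table uses Sscrofa11.1. Replicates are separate piglets. Pseudocounts, a filter, scalings, the variance trend, a replicate block, a library term and leaving out each sample were tried as alternatives.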

Additional observations from a re-analysis of the deposited data

How the results depend on the processing

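The count of 0 of the 6 lymphocyte genes past the threshold was the same under all 14 alternatives, of which the filter for 3 samples above 1 FPKM kept only CD3D, CD79B and NKG7. The lowest adjusted p of any of the 6 genes was 0.105, for MS4A1 after quantile normalization. The directions of CD4, CD79B, MS4A1 and NKG7 held throughout. The replicate numbers mark piglets of different sows, and samples with the same number did not deviate together (correlations of -0.0407, -0.0043 and 0.00047). With the number as a replicate block, 401 of all mRNAs and 2 of the 62 further lymphocyte genes were past the threshold, instead of 1001 and 4. PIK3AP1 was lost, with an adjusted p of 0.123, as were CD48, ITGAL and VAV1, at 0.0920, 0.0709 and 0.0696. With a library term, which marks Fetal3, Neonatal2 and Neonatal3, the counts were 587 and 2. With single samples left out, these counts lay between 196 and 944 and between 0 and 5, and the median difference of the 6 genes lay between -0.23, without Neonatal3, and 0.36, without Neonatal1. CD8A turned to 0.11 with a pseudocount of 0.1 and to 0.036 with the library term, and lay between -0.23 and 0.17 with single samples left out. LCK, at 0.02, turned to -0.10 after median-of-ratios scaling and to -0.11 after quantile normalization. Directions also turned with single samples left out for LCK (between -0.18 and 0.20), CD3D (-0.24 and 0.61), CD247 (-0.27 and 0.15) and IL7R (-0.54 and 0.13). The causes were not tested. A higher neonatal level was found in 78.8% of the 1001 calls, against 66.0% after median-of-ratios scaling and 57.9% after quantile normalization. Without counts, the depth behind values below 1 FPKM cannot be given.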
